A study of Mus musculus with 12 samples.

Results

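Collagens are the main structural proteins of the extracellular matrix, and each molecule is built from 3 alpha chains, every chain type being encoded by its own gene. The collagen chain genes described here were the entries of the deposited expression matrix whose protein-coding symbol in GENCODE M21 consists of Col, a type number, the letter a and a chain number. This rule found 44 genes among the 54104 entries with an Ensembl gene identifier. They comprised 11 fibrillar chains, 6 type IV chains of the basement membrane and 27 other chains. The data were bulk RNA sequencing of 12 mouse libraries in 4 groups of 3. The groups were Ly6C tumor, Ly6C spleen, Ly6G tumor and Ly6G spleen, where Ly6C and Ly6G are surface proteins used to tell monocytic from polymorphonuclear myeloid-derived suppressor cells. No strain, age, tumor model, gate or treatment is given in the labels, although the series title names an inhibitor of MAPK signaling. The labels do not say whether libraries of a group came from separate mice, so p-values measure only the spread between these libraries, which may be technical.

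Fibrillar collagens (types I, II, III, V, XI, XXIV and XXVII) assemble into the fibrils of connective tissue, in which types I and III are the bulk material and type V controls fibril assembly. Type IV forms the sheet-like network of basement membranes, and types VI, VII, XVI and XVIII link or line these structures. In tissues, fibroblasts, mural cells, endothelium, epithelium and cartilage cells are the usual sources, and myeloid cells are better known for receiving collagen signals through receptors such as Lair1. A procollagen is folded and hydroxylated in the endoplasmic reticulum, exported in large carriers, trimmed outside the cell and cross-linked.

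Values are FPKM, fragments assigned to a gene scaled by its length and by the size of the library. The gene lengths used are not given, so comparisons of level between genes depend on unknown lengths. Differences are of log2(FPKM + 1) ± the standard error of a limma model, positive where tumor is higher than spleen or Ly6C higher than Ly6G, and a call required an adjusted p (Benjamini-Hochberg, over 13610 genes) under 0.05. Adding 1 FPKM understates the change of low genes. The libraries held 331681 to 449309 FPKM in total, with 10379 to 12337 genes at 1 FPKM or more.

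The tumor libraries did not carry the marker profile of their labels at the level of the spleen libraries. Summed FPKM of 20 pan-leukocyte genes was 292 to 610.4 in Ly6C tumor, against 5773 to 6631 in Ly6C spleen, and 780 to 1351 in Ly6G tumor, against 7430 to 7825 in Ly6G spleen. Ptprc, which encodes the leukocyte antigen CD45, stood at 2.59 to 4.59 FPKM in Ly6C tumor, against 26.3 to 38.3 in Ly6C spleen, and at 7.66 to 14.0 in Ly6G tumor, against 34.8 to 52.5 in Ly6G spleen. Of 9 epithelial markers, Krt8 and Krt18, the keratins of simple epithelia, were high in tumor. Krt8 stood at 576 to 770.0 FPKM in Ly6C tumor, against 0 to 0.159 in Ly6C spleen, and at 356 to 574 in Ly6G tumor, against 0.0725 to 0.263 in Ly6G spleen. The other 7 stayed under 0.5 FPKM in Ly6C tumor, and among them Epcam, an adhesion protein of most epithelia, was listed at 0 in all Ly6C tumor libraries, against 0.136 to 0.235 FPKM in Ly6C spleen, and at 0 to 0.159 in Ly6G tumor, against 0.564 to 1.08 in Ly6G spleen. Ly6g, the gene of the Ly6G label, reached 31.5 to 54.1 FPKM in Ly6G tumor, against 591 to 717 in Ly6G spleen, and 11.8 to 13.8 FPKM in Ly6C tumor, against 131 to 209 in Ly6C spleen. Ly6c2 was at 6.35 to 8.16 FPKM in Ly6C tumor, against 223 to 272 in Ly6C spleen, and it did not separate Ly6C from Ly6G libraries in either tissue (limma adjusted p = 0.818 in tumor and 0.38 in spleen). Every difference between tumor and spleen below stands beside this difference in markers, whose part in it was not tested. In bulk libraries, fewer cells of a type and less RNA per cell cannot be told apart.

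Most of the 44 chains were at or near 0 in the spleen, and a small set was abundant in tumor. In all, 18 chains reached 1 FPKM in at least 3 libraries and were tested: 8 fibrillar, 2 type IV and 8 other chains. Of these, 14 reached 1 FPKM in no spleen library and so passed the filter through the tumor libraries alone, which means that they had to differ between the tissues. The 4 others, Col1a1, Col5a1, Col11a2 and Col14a1, reached 1 FPKM in at least 1 spleen library. The summed FPKM of all 44 chains was 0.204% ± 0.0255 of all FPKM in Ly6C tumor and 0.00409% ± 0.00106 in Ly6C spleen (SD, n = 3 each). In Ly6G tumor the share was 0.217% ± 0.0601, and 0.00236% ± 0.0000752 in Ly6G spleen (SD, n = 3 each).

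**Figure D1:**
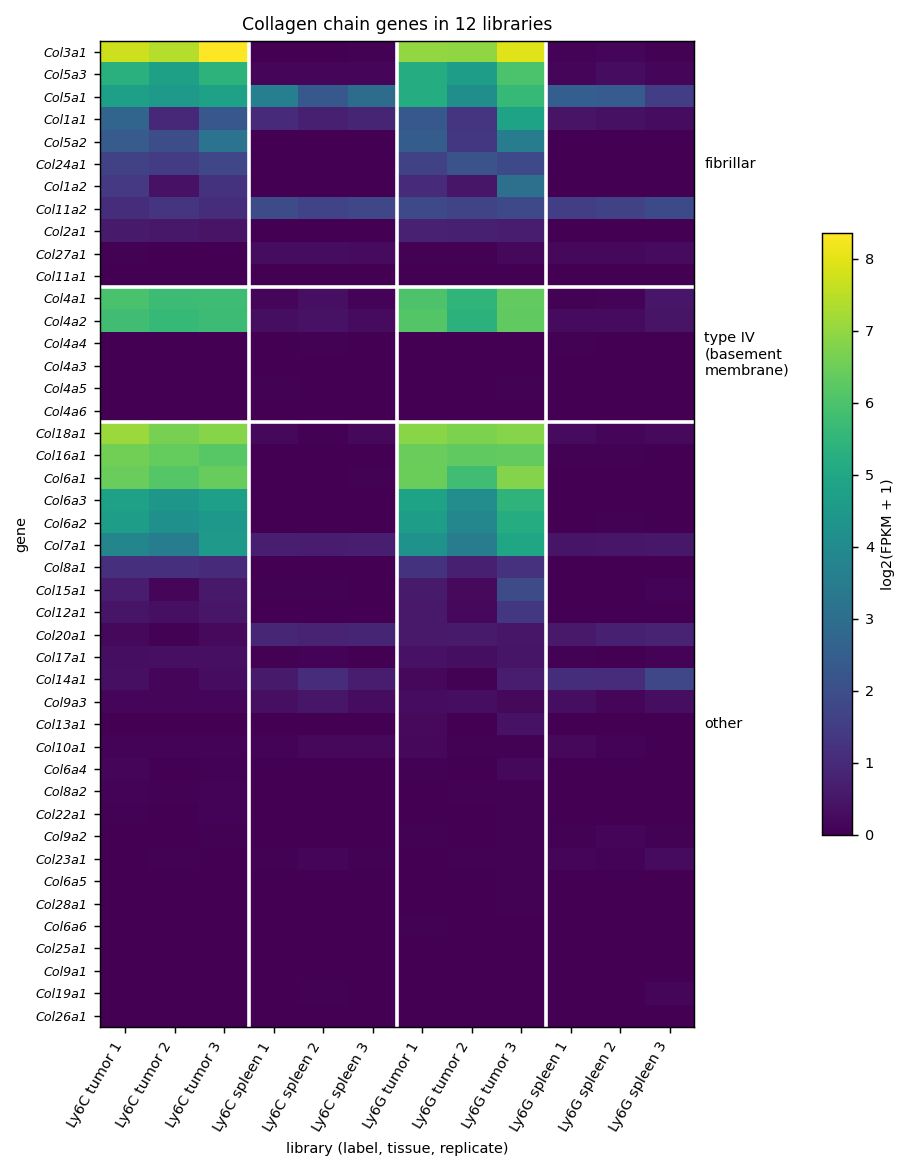
Levels of the 44 collagen chain genes as log2(FPKM + 1) (color) in each of 12 libraries (columns, tumor left of spleen within a label), with rows grouped as fibrillar, type IV and other chains and sorted within a group by mean tumor level. Col3a1, Col18a1, Col16a1, Col6a1, Col4a1 and Col4a2 are bright in the 6 tumor libraries and dark in the 6 spleen libraries, while Col11a2, Col5a1 and Col14a1 are visible in spleen.

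Of the 18 tested chains, 14 rose and 2 fell in Ly6C tumor relative to Ly6C spleen, and 2 did not pass. Among all 13610 tested genes, 46.2% were called higher and 30.5% lower in that comparison, 76.7% in all. In Ly6G tumor relative to Ly6G spleen, 16 chains rose, 1 fell and 1 did not pass, while 51.5% of all tested genes were called higher and 24.7% lower, 76.2% in all. The median log2 difference of the tested chains was 3.86 in Ly6C and 4.15 in Ly6G, beside 0.272 and 0.431 over all tested genes. Because the filter selected 14 chains for being high in tumor, neither the counts nor the medians bear on the family as a whole. Without any filter, each of the 44 chains can be read by whether its 3 tumor values all lie above its 3 spleen values. This held for 22 chains in Ly6C (30.8% of all 30674 detected genes) and for 23 in Ly6G (35.1%), and the opposite order for 6 (20.4%) and 5 (17.2%). In both labels the share of chains that lay higher in tumor was above that of all detected genes, and the share that lay lower was below it. By class, 7 of 11 fibrillar, 2 of 6 type IV and 13 of 27 other chains lay higher in Ly6C tumor, and 9, 2 and 12 in Ly6G tumor. Some of these orders rest on values at which a chain may be absent. Col13a1 counted as higher in Ly6C at 0.0116 to 0.0224 FPKM in tumor against at most 0.0111 in spleen. In Ly6G, Col11a1 counted as higher at 0.00393 to 0.00428 FPKM in tumor against 0 in spleen. Col4a4 counted as lower in Ly6G at 0 to 0.01544 FPKM in tumor against 0.01547 to 0.0349 in spleen.

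**Figure D2:**
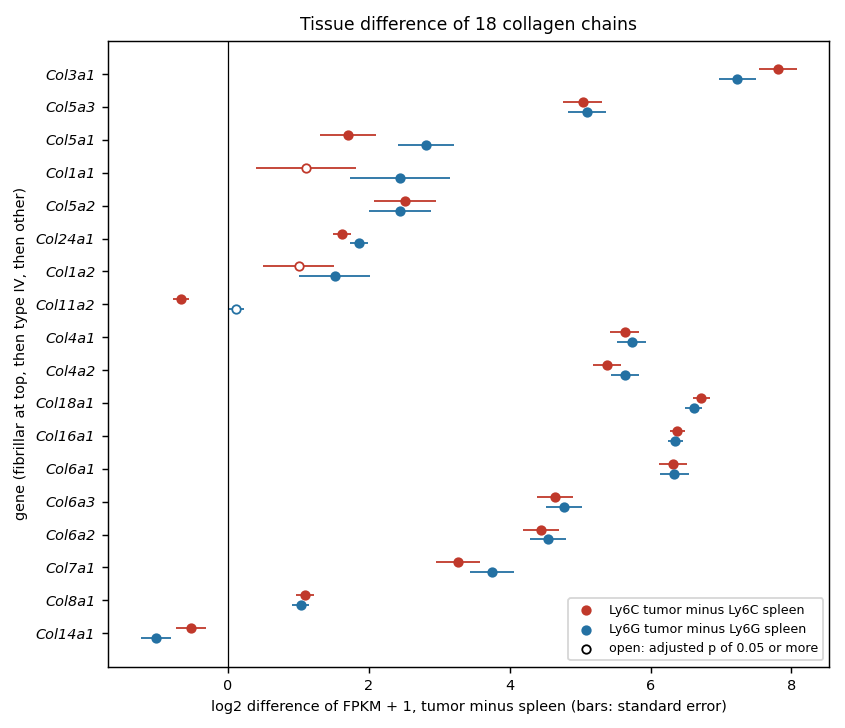
Log2 difference of FPKM + 1 between tumor and spleen (x axis) for the 18 tested chains (y axis), with Ly6C libraries in red and Ly6G libraries in blue, bars showing the limma standard error (3 libraries in each group) and open symbols marking an adjusted p of 0.05 or more. Col3a1 lies farthest right at 7.81 (Ly6C) and 7.23 (Ly6G), Col14a1 lies left of 0 in both, and Col11a2 lies left of 0 in Ly6C and near 0 in Ly6G.

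Among the fibrillar chains, Col3a1, the single chain of type III collagen (ENSMUSG00000026043, GRCm38 chromosome 1, 45311538 to 45349706, plus strand), was the most abundant collagen transcript in tumor. It had 211, 170.5 and 327 FPKM in Ly6C tumor libraries 1, 2 and 3, against 0.0146, 0.0092 and 0.0336 in Ly6C spleen. In Ly6G tumor it had 129, 124 and 248 FPKM, against 0.0567, 0.0928 and 0.0313 in Ly6G spleen. The groups were far apart in both labels, and the limma difference was 7.81 ± 0.26 in Ly6C (adjusted p = 2.8e-10) and 7.23 ± 0.26 in Ly6G (adjusted p = 5.86e-10). An exon stretch of 141 bases is shared with a predicted microRNA gene, 1.44% of its exon length.

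Type I collagen did not follow type III. Col1a1 (ENSMUSG00000001506, GRCm38 chromosome 11, 94936224 to 94953042, plus strand), which encodes 2 of the 3 chains of type I, had 5.57, 0.898 and 3.81 FPKM in Ly6C tumor, against 1.01, 0.65 and 0.814 in Ly6C spleen. Those groups overlapped, since the second tumor library lay below the first spleen library, and the difference of 1.11 ± 0.71 did not pass (limma adjusted p = 0.174). In Ly6G tumor Col1a1 had 3.95, 1.44 and 27.9 FPKM, against 0.347, 0.311 and 0.214 in Ly6G spleen, and it rose by 2.45 ± 0.71 (limma adjusted p = 0.00791). The third Ly6G tumor library set the size of that rise: without it the difference was 1.43 ± 0.44 (limma adjusted p = 0.0128). Leaving that library out also narrowed the spread shared by all groups, and the unchanged Ly6C difference of 1.11 then passed (adjusted p = 0.0249). A fit of the Ly6C groups alone had the same effect (limma adjusted p = 0.0396).

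Col1a2 (ENSMUSG00000029661, GRCm38 chromosome 6, 4504814 to 4541544, plus strand) is the partner chain of type I. Its levels were below those of Col1a1, with the tumor libraries of each label in the same order. In spleen, where Col1a1 had 0.214 to 1.01 FPKM, Col1a2 was near 0. It had 1.61, 0.342 and 1.36 FPKM in Ly6C tumor, against 0.00357, 0.00944 and 0 in Ly6C spleen, and 1.03, 0.414 and 7.41 FPKM in Ly6G tumor, against 0.00627, 0.00388 and 0.0205 in Ly6G spleen. Tumor and spleen values did not overlap in either label. The limma difference was 1.01 ± 0.50 in Ly6C (adjusted p = 0.0863) and 1.52 ± 0.50 in Ly6G (adjusted p = 0.0162), the second falling to 0.75 ± 0.25 without Ly6G tumor 3 (adjusted p = 0.0177). The Ly6C difference passed under 8 of the other settings, among them a pseudocount of 0.1 (3.31 ± 0.80, limma adjusted p = 0.00257) and leaving out Ly6G tumor 3 (adjusted p = 0.00156) or Ly6G tumor 2 (adjusted p = 0.0473).

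The windows around the RefSeq transcription starts of Col3a1 and Col1a2 (GRCm38.p6, 250 bases before to 50 after the start, read 5′ to 3′ on the gene's strand) are shown because types I and III share fibrils while their transcripts stood far apart in tumor. Capitals mark 3 motifs searched on both strands, the CCAAT box (CCAAT or ATTGG), the GC box (GGGCGG or CCGCCC) and the TATA motif (TATAAA or TTTATA). No 2 matches overlapped in the printed windows. The Col3a1 window lies at chr1:45311288-45311587, plus strand, and the Col1a2 window at chr6:4505368-4505667, plus strand.
Col3a1: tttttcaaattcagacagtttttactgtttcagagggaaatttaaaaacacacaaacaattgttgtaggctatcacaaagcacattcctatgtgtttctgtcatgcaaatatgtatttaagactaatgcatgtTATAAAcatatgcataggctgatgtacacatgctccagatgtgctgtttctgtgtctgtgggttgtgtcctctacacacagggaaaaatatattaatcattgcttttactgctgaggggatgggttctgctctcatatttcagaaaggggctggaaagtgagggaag
Col1a2: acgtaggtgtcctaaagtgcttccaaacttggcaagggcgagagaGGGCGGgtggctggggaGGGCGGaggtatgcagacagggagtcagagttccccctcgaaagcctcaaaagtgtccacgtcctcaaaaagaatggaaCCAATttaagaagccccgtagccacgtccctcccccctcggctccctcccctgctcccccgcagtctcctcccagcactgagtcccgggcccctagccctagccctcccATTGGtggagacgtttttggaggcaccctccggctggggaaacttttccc
The Col3a1 window held 1 TATA motif and neither of the other motifs, with 37.7% G or C. The Col1a2 window held 2 CCAAT boxes, 2 GC boxes and no TATA motif, with 61.0% G or C. RefSeq windows were found for 35 of the 44 chains, 38 windows in all, of which 13 held a CCAAT box, 23 a GC box and 5 a TATA motif. Of 32851 windows over all genes, 37.4% held a CCAAT box, 35.7% a GC box and 13.6% a TATA motif. A match describes the letters alone.

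Type V had 1 chain with a clear level in both tissues. Col5a1 (GRCm38 chromosome 2, 27886425 to 28039514, plus strand) had 25.1, 21.7 and 26.8 FPKM in Ly6C tumor, against 11.3, 3.93 and 6.78 in Ly6C spleen. In Ly6G tumor it had 34.8, 16.4 and 47.1 FPKM, against 4.62, 4.25 and 1.93 in Ly6G spleen. It was above every spleen library in every tumor library, and rose by 1.71 ± 0.40 in Ly6C (limma adjusted p = 0.00192) and by 2.81 ± 0.40 in Ly6G (adjusted p = 4.49e-05), while those tissue differences did not pass a test against each other (-1.10 ± 0.56, limma adjusted p = 0.183). With libraries rescaled to equal sums that difference was -1.62 ± 0.58 and passed (limma adjusted p = 0.0474), as did the Col5a1 difference between Ly6C and Ly6G spleen (1.21 ± 0.41, limma adjusted p = 0.0312, against 0.81 ± 0.40 and adjusted p = 0.146 on the deposited scale). Opposite-strand transcripts share 99 and 113 bases with its exons.

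Its partner chains were near 0 in spleen. Col5a3 averaged 35.6 ± 8.47 FPKM in Ly6C tumor and 0.093 ± 0.0232 in Ly6C spleen (SD, n = 3 each), and 40.7 ± 19.4 in Ly6G tumor and 0.138 ± 0.0774 in Ly6G spleen (SD, n = 3 each). It rose by 5.04 ± 0.27 in Ly6C and by 5.09 ± 0.27 in Ly6G. Col5a2, which lies next to Col3a1 on chromosome 1 (45374321 to 45503282, minus strand), averaged 5.1 ± 2.71 FPKM in Ly6C tumor and was listed at 0 in all Ly6C spleen libraries. In Ly6G tumor it averaged 5.57 ± 4.61 FPKM, against 0.00701 ± 0.00617 in Ly6G spleen (SD, n = 3 each). It passed in limma in Ly6C (adjusted p = 0.000222) and rose by 2.44 ± 0.44 in Ly6G (adjusted p = 0.000289). Col24a1, a fibrillar chain of the evolutionarily older branch, had 2.1, 1.78 and 2.41 FPKM in Ly6C tumor and 2.06, 3.36 and 2.61 in Ly6G tumor, and was listed at 0 in all 6 spleen libraries. Both tissue differences passed in limma (adjusted p = 2.52e-07 in Ly6C and 9.38e-08 in Ly6G).

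Col11a2 (ENSMUSG00000024330, GRCm38 chromosome 17, 34039437 to 34066685, plus strand), a type XI chain best known from cartilage, was the 1 of the 8 tested fibrillar chains that rose in neither label. It had 1.12, 1.38 and 1.12 FPKM in Ly6C tumor, against 2.81, 2.23 and 2.46 in Ly6C spleen, with no overlap. In Ly6G tumor it had 2.6, 2.3 and 2.59 FPKM, against 1.91, 2.12 and 2.64 in Ly6G spleen, and these groups overlapped. It fell by 0.66 ± 0.11 in Ly6C (limma adjusted p = 0.000217), whereas the Ly6G difference of 0.12 ± 0.11 did not pass (limma adjusted p = 0.349). The sign of the Ly6G difference depended on scaling: it was 0.45 with libraries rescaled to equal sums (limma adjusted p = 0.0205) and -0.43 after quantile normalization (limma adjusted p = 0.00545). The Ly6C fall became a rise of 1.86 when libraries were rescaled to the pan-leukocyte genes, a scaling that moved the median of all genes to 3.18. Its partner Col11a1 stayed at or below 0.00428 FPKM in every library.

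The type IV network was represented by its ubiquitous chains alone. Col4a1 (ENSMUSG00000031502, GRCm38 chromosome 8, 11198423 to 11312826, minus strand) had 61.5, 51.9 and 53.5 FPKM in Ly6C tumor, against 0.0891, 0.26 and 0.0667 in Ly6C spleen, and 63.7, 42.9 and 81.1 in Ly6G tumor, against 0.0438, 0.051 and 0.407 in Ly6G spleen. Col4a2 (ENSMUSG00000031503, GRCm38 chromosome 8, 11312805 to 11449287, plus strand) had 54.7, 47.2 and 51.8 FPKM in Ly6C tumor, against 0.243, 0.336 and 0.184 in Ly6C spleen, and 68.3, 40.8 and 79.0 in Ly6G tumor, against 0.186, 0.174 and 0.36 in Ly6G spleen. Every tumor value exceeded every spleen value by a wide margin for both genes. Col4a1 rose by 5.64 ± 0.20 in Ly6C and 5.74 ± 0.20 in Ly6G, and Col4a2 by 5.38 ± 0.20 and 5.63 ± 0.20, all passing in limma (adjusted p between 4.09e-10 and 5.44e-10). The tissue-restricted chains Col4a3, Col4a4, Col4a5 and Col4a6, which form the networks of kidney, lung and smooth muscle, did not reach 0.1 FPKM in any library.

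Col4a1 and Col4a2 are transcribed away from each other from 1 shared region, and their RefSeq windows are shown because both genes kept nearly equal levels in every tumor library. Their annotated starts are 21 bases apart in RefSeq, and the windows overlap by 78 bases. In GENCODE M21 the exons of the pair share 22 bases on opposite strands. The Col4a1 window lies at chr8:11312777-11313076, minus strand, and the Col4a2 window at chr8:11312555-11312854, plus strand, both 5′ to 3′ on the gene's own strand with the same motifs in capitals.
Col4a1: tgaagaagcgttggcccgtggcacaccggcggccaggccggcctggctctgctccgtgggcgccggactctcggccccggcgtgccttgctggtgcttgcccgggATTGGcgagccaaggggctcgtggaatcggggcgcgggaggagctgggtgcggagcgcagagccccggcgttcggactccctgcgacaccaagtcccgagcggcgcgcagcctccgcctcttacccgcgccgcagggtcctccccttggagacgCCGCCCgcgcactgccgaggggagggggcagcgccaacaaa
Col4a2: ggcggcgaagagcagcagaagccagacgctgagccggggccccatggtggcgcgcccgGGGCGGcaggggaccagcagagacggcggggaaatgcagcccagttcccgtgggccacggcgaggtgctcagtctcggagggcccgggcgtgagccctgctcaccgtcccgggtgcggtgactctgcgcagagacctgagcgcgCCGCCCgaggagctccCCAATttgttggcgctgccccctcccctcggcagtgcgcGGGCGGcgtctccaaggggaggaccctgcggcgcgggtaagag
The Col4a1 window held 1 CCAAT box and 1 GC box, the Col4a2 window 1 CCAAT box and 3 GC boxes, and neither held a TATA motif. The GC box of the Col4a1 window lies in the shared bases and is the same site as the last GC box of the Col4a2 window. The ratio of Col4a1 to Col4a2 FPKM was 1.12, 1.1 and 1.03 in Ly6C tumor and 0.933, 1.05 and 1.03 in Ly6G tumor. The log2 ratio averaged 0.117 ± 0.0642 in Ly6C tumor and 0.00392 ± 0.0922 in Ly6G tumor (SD, n = 3 each, two-sided exact permutation p = 0.2, smallest possible 0.1). The type IV protomer of these genes holds 2 Col4a1 chains and 1 Col4a2 chain, a proportion to which transcript levels need not correspond.

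Among the other chains, type VI, XVI and XVIII collagens were the most abundant in tumor. Type VI collagen forms beaded filaments around cells from the products of Col6a1, Col6a2 and Col6a3. Col6a1 (GRCm38 chromosome 10, 76708792 to 76726168, minus strand) had 86.8, 70.2 and 84.8 FPKM in Ly6C tumor, against 0.0119, 0 and 0.0455 in Ly6C spleen, and 88.9, 54.4 and 111 in Ly6G tumor, against 0.013, 0.011 and 0.0216 in Ly6G spleen. It rose by 6.32 ± 0.20 in Ly6C and 6.34 ± 0.20 in Ly6G (limma adjusted p = 1.84e-10 and 1.97e-10). Col6a2 and Col6a3 were lower and close to each other, Col6a2 at 20.95 ± 3.62 FPKM and Col6a3 at 24.2 ± 3.25 in Ly6C tumor, and 24.3 ± 10.8 and 28.7 ± 13.4 in Ly6G tumor (SD, n = 3 each). Col6a2 was listed at 0 in all Ly6C spleen libraries and averaged 0.0153 ± 0.0146 FPKM in Ly6G spleen, passing in limma in Ly6C (adjusted p = 2.05e-08) and rising by 4.54 ± 0.25 in Ly6G. Col6a3 rose by 4.64 ± 0.26 in Ly6C and 4.77 ± 0.26 in Ly6G. Col6a4, Col6a5 and Col6a6, whose products can take the place of the Col6a3 chain, were at most at 0.129 FPKM.

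Col16a1 and Col18a1 were the steadiest of the abundant chains. Col16a1 (ENSMUSG00000040690, GRCm38 chromosome 4, 130047840 to 130099283, plus strand), a fibril-associated collagen that binds integrins, had 94.6, 82.9 and 72.5 FPKM in Ly6C tumor, against 0.0112, 0.00858 and 0.00759 in Ly6C spleen, and 86.9, 79.7 and 80.9 in Ly6G tumor, against 0.0338, 0.0309 and 0 in Ly6G spleen. It rose by 6.38 ± 0.11 in Ly6C and 6.35 ± 0.11 in Ly6G (limma adjusted p = 2.58e-12 and 3.28e-12). Its RefSeq window, shown as that of an abundant chain with little spread among tumor libraries, lies at chr4:130047590-130047889, plus strand, and held 1 CCAAT box and 2 GC boxes with 74.3% G or C.
Col16a1: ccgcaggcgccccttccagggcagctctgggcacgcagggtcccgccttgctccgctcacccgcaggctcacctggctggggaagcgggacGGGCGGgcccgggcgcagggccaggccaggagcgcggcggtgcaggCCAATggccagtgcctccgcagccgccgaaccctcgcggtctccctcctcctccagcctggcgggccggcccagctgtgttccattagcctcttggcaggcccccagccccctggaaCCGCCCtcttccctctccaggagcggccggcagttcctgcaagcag
Col18a1 (GRCm38 chromosome 10, 77052178 to 77166548, minus strand), a basement membrane proteoglycan whose end fragment is endostatin, had 135, 99.3 and 113 FPKM in Ly6C tumor, against 0.137, 0.0379 and 0.131 in Ly6C spleen, and 116, 103 and 115 in Ly6G tumor, against 0.173, 0.1 and 0.155 in Ly6G spleen. It rose by 6.72 ± 0.12 in Ly6C and 6.61 ± 0.12 in Ly6G (limma adjusted p = 3.44e-12 and 4.78e-12).

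Col7a1, the anchoring fibril chain that ties epithelial basement membrane to the stroma below, averaged 15.1 ± 5.73 FPKM in Ly6C tumor and 0.598 ± 0.0343 in Ly6C spleen, and 19.7 ± 9.87 in Ly6G tumor and 0.414 ± 0.0308 in Ly6G spleen (SD, n = 3 each). It rose by 3.27 ± 0.31 in Ly6C and 3.75 ± 0.31 in Ly6G. Col8a1, a short-chain collagen of vessel walls, averaged 1.15 ± 0.0756 FPKM in Ly6C tumor, against 0.00436 ± 0.00756 in Ly6C spleen, and 1.08 ± 0.373 in Ly6G tumor, while it was listed at 0 in Ly6G spleen (SD, n = 3 each). It rose by 1.10 ± 0.12 in Ly6C and passed in limma in Ly6G (adjusted p = 9.04e-06).

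Col14a1 (GRCm38 chromosome 15, 55307750 to 55520803, plus strand), a fibril-associated collagen, was the tested chain of this group that was higher in spleen. It had 0.26, 0.0957 and 0.205 FPKM in Ly6C tumor, against 0.52, 1.08 and 0.546 in Ly6C spleen, and 0.121, 0.0238 and 0.542 in Ly6G tumor, against 1.11, 1.06 and 2.4 in Ly6G spleen. The tissues did not overlap in either label, although all values were low. It fell by 1.02 ± 0.21 in Ly6G (limma adjusted p = 0.000897). The fall of 0.52 ± 0.21 in Ly6C (limma adjusted p = 0.0423) no longer passed when any of 6 single libraries was left out, namely Ly6C tumor 1, 2 or 3, Ly6C spleen 2 or 3, or Ly6G tumor 1 (limma adjusted p between 0.0501 and 0.158). Under pan-leukocyte scaling it became a rise of 0.55, and the Ly6G fall shrank to 0.09 (limma adjusted p = 0.681).

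The 26 chains that did not reach the filter comprised 3 fibrillar, 4 type IV and 19 other chains. Col26a1 was listed at 0 in all 12 libraries, and 14 of the 26, Col26a1 included, stayed under 0.1 FPKM in every library. The highest means among them belonged to Col20a1, Col15a1 and Col2a1. Col20a1, a fibril-associated chain, had 0.128, 0.0405 and 0.15 FPKM in Ly6C tumor, against 0.843, 0.8 and 0.805 in Ly6C spleen, and 0.492, 0.52 and 0.422 in Ly6G tumor, against 0.481, 0.661 and 0.735 in Ly6G spleen. Col15a1, a basement membrane relative of Col18a1 in vessel and muscle, had 0.538, 0.106 and 0.478 FPKM in Ly6C tumor and at most 0.0285 in Ly6C spleen, and 0.525, 0.166 and 2.86 in Ly6G tumor and at most 0.0557 in Ly6G spleen. Col2a1, the main cartilage collagen, had 0.505, 0.465 and 0.37 FPKM in Ly6C tumor and at most 0.00628 in Ly6C spleen, and 0.718, 0.66 and 0.6 in Ly6G tumor and at most 0.0148 in Ly6G spleen. Only Col15a1 and Col12a1 (1.57 FPKM) of the 26 reached 1 FPKM anywhere, and both did so in Ly6G tumor 3.

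In a limma fit without an expression filter, which held 30674 genes, some of the 26 chains passed, although the added 1 FPKM compresses such changes. Apart from Col20a1 and Col2a1, the genes named here were chosen after their values were seen. In Ly6C tumor relative to Ly6C spleen, 4 of the 26 low chains were higher (Col2a1, Col17a1, Col8a2 and Col22a1) and 3 lower (Col20a1, Col27a1 and Col9a3), against 26.9% and 17.5% of these genes (44.4% in all). In Ly6G, 3 were higher (Col2a1, Col17a1 and Col12a1) and 2 lower (Col27a1 and Col23a1), against 31.3% and 15.1% (46.5% in all). The shares over 30674 genes include the 13610 genes that reached the filter. Of those, 76.7% were called in Ly6C and 76.2% in Ly6G in the filtered fit. The shares are therefore no measure for chains chosen as low. Between labels in tumor, 0 were higher and 2, Col20a1 and Col2a1, lower in Ly6C, against 1.49% and 3.29% (4.78% in all). Col17a1, a transmembrane collagen of epithelial hemidesmosomes, had 0.231 to 0.282 FPKM in Ly6C tumor, against 0 to 0.0636 in Ly6C spleen, and 0.233 to 0.378 in Ly6G tumor, against 0.0116 to 0.0487 in Ly6G spleen. Col20a1 was lower in Ly6C tumor than in Ly6C spleen (-0.72 ± 0.07, limma adjusted p = 1.94e-05) and lower in Ly6C tumor than in Ly6G tumor (-0.42 ± 0.07, limma adjusted p = 0.0161), the same pair of differences that Col11a2 showed above the filter. Col2a1 was higher in tumor by 0.53 ± 0.04 in Ly6C and 0.72 ± 0.04 in Ly6G, and lower in Ly6C tumor than in Ly6G tumor (-0.20 ± 0.04, limma adjusted p = 0.0289).

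The order of mean levels over the 6 tumor libraries ran from Col3a1 (202 ± 77.9 FPKM) over Col18a1 (114 ± 12.7), Col16a1 (82.9 ± 7.41), Col6a1 (82.6 ± 18.9), Col4a1 (59.1 ± 13.1), Col4a2 (57.0 ± 14.1), Col5a3 (38.1 ± 13.7), Col5a1 (28.6 ± 10.9), Col6a3 (26.5 ± 9.07), Col6a2 (22.6 ± 7.43) and Col7a1 (17.4 ± 7.64) to Col1a1 (7.26 ± 10.3), Col5a2 (5.34 ± 3.39), Col24a1 (2.39 ± 0.557), Col1a2 (2.03 ± 2.68), Col11a2 (1.85 ± 0.72), Col8a1 (1.11 ± 0.244) and Col14a1 (0.208 ± 0.183), each with the SD over 6 libraries of both labels. Neighbours such as Col16a1 and Col6a1, Col4a1 and Col4a2, or Col6a3 and Col6a2 differed by less than their SD. That SD is not the spread of their difference within a library. Col6a3 exceeded Col6a2 in every tumor library, and Col4a1 exceeded Col4a2 in all but Ly6G tumor 1. The order of Col16a1 and Col6a1 varied between libraries. The order also depends on the gene lengths behind the FPKM values, which are not given.

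The chains differed widely in how evenly they were spread among the tumor libraries. The highest tumor library exceeded the lowest 31.1-fold for Col1a1, 22.7-fold for Col14a1, 21.7-fold for Col1a2 and 6.77-fold for Col5a2, all above the 90th percentile of 4.05-fold over 13188 genes. For Col16a1 and Col18a1 that ratio was 1.30 and 1.36, below the median of 1.65 over the same genes, an order that turned with libraries rescaled to equal sums (1.41 for Col16a1 and 1.34 for Col18a1). The other 12 tested chains lay between 1.89-fold and 2.90-fold. Replicates of a group have no order, but single libraries stood out. Ly6G tumor 3 held the highest tumor value of 12 of the 18 chains (14.6% of all genes), and within Ly6G tumor, library 2 held the lowest value of 17 chains (29.6% of all genes). Within Ly6C tumor, library 2 held the lowest value of 15 chains (30.8% of all genes).

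**Figure D3:**
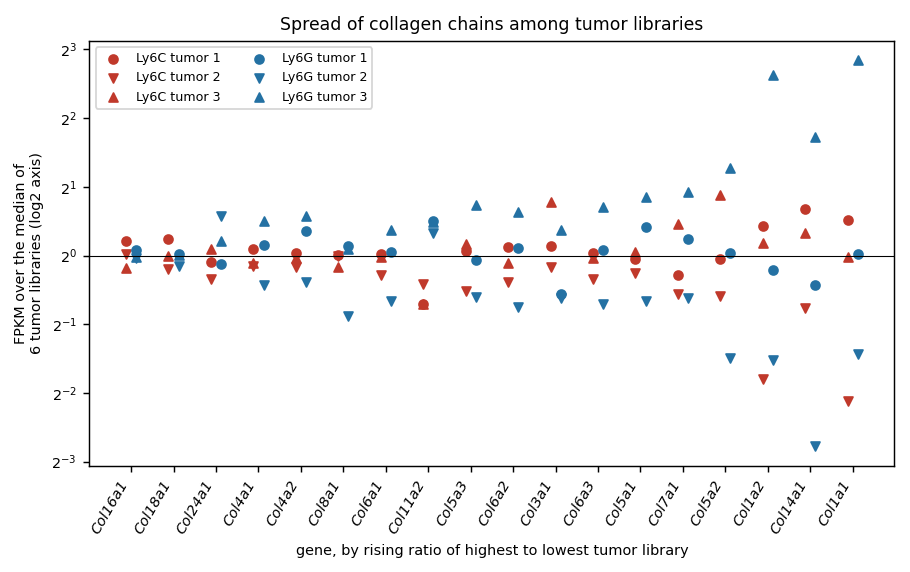
FPKM of the 18 tested chains in each of the 6 tumor libraries divided by the chain's median over these libraries (y axis, log2 scale), with chains ordered by the ratio of the highest to the lowest library (x axis), Ly6C tumor in red and Ly6G tumor in blue. Col16a1 and Col18a1 lie close to 1, while Col1a1, Col1a2 and Col14a1 spread over more than 20-fold with Ly6G tumor 3 on top.

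Marker sums of other stromal cells varied among the tumor libraries, not all in the order of the collagen chains. The summed FPKM of 6 pericyte genes was 6.57, 2.57 and 6.46 in Ly6C tumor libraries 1, 2 and 3 and 9.43, 3.75 and 24.8 in Ly6G tumor, with the highest and the lowest sum in the libraries that were highest and lowest for Col1a1. Among them Rgs5 had 1.82, 0.573 and 1.74 FPKM in Ly6C tumor and 1.46, 0.502 and 5.4 in Ly6G tumor. The 7 endothelial genes summed to 3.53, 2.3 and 3.26 FPKM in Ly6C tumor and to 21.6, 4.1 and 25.6 in Ly6G tumor, so that Ly6G tumor 1 was near library 3 although Col1a1 was 3.95 FPKM in the first and 27.9 in the other. The 14 fibroblast markers other than collagens summed to 1482, 1516 and 1449 FPKM in Ly6C tumor and to 987, 1092 and 849 in Ly6G tumor, the highest sum being in the library lowest for Col1a1 and the lowest in the library highest for it. S100a4 and Vim made up most of that sum. Of its smaller members, the small leucine-rich proteoglycan genes Dcn and Lum were lowest in Ly6G tumor 2 (2.08 and 1.71 FPKM) and highest in Ly6G tumor 3 (13.7 and 10.1 FPKM). Krt8 was lowest in Ly6G tumor 3 (356 FPKM), which also had the highest share of mitochondrial transcripts (11.9%). Their part in the spread of the collagen chains was not tested.

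The makeup of the collagen transcripts differed between the tissues. Fibrillar chains took 40.2% ± 6.77 of summed collagen FPKM in Ly6C tumor and 75.6% ± 9.91 in Ly6C spleen, and 34.6% ± 5.89 in Ly6G tumor and 63.5% ± 11.99 in Ly6G spleen (SD, n = 3 each). Type III alone took 30.6% ± 6.45 in Ly6C tumor and 0.139% ± 0.1 in Ly6C spleen, and 22.1% ± 3.57 in Ly6G tumor and 0.591% ± 0.309 in Ly6G spleen. Type V took 8.54% ± 0.448 in Ly6C tumor and 50.1% ± 12.8 in Ly6C spleen, and 10.2% ± 2.12 in Ly6G tumor and 36.7% ± 14.9 in Ly6G spleen. Type I took 0.569% ± 0.357 in Ly6C tumor and 5.88% ± 0.354 in Ly6C spleen, and 1.54% ± 1.76 in Ly6G tumor and 2.94% ± 0.611 in Ly6G spleen. The spleen shares are shares of a sum of 10.1 to 18.4 FPKM per library.

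**Figure D4:**
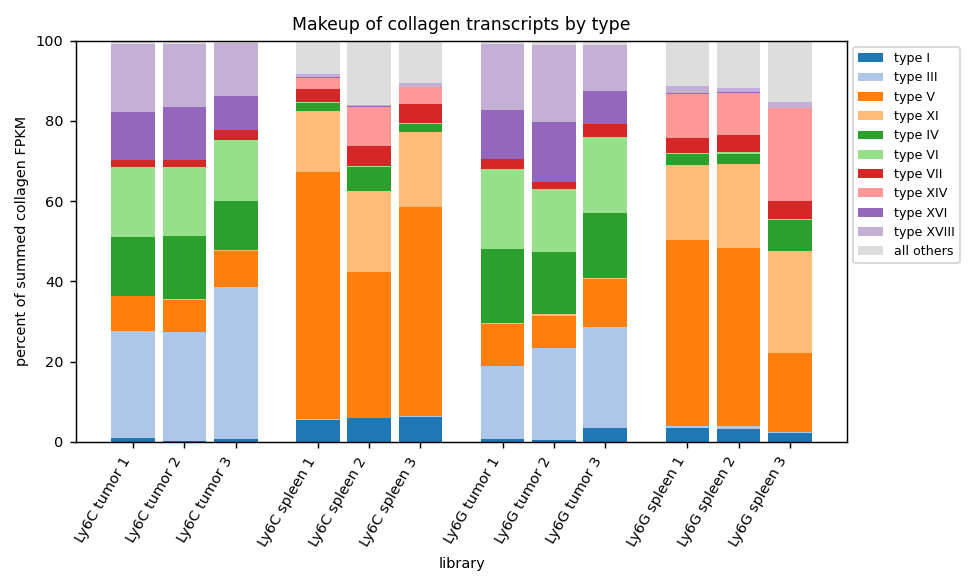
Percent of summed collagen FPKM (y axis) taken by each collagen type (colors) in each of 12 libraries (x axis, tumor left of spleen within a label). Types III, IV, VI, XVI and XVIII fill most of the tumor bars, whereas types V, XI and XIV fill most of the spleen bars.

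Type IV took 14.2% ± 1.81 of collagen FPKM in Ly6C tumor and 3.36% ± 2.32 in Ly6C spleen, and 16.8% ± 1.56 in Ly6G tumor and 4.35% ± 2.96 in Ly6G spleen (SD, n = 3 each). Between the labels in tumor, the fibrillar share was 5.63 percentage points higher in Ly6C (two-sided exact permutation p = 0.4) and the type IV share 2.52 points lower, at -2.52 (exact permutation p = 0.2), in a design whose smallest p is 0.1. Both directions turned when shares were taken of summed log2(FPKM + 1), where they were -0.65 and 0.41 points.

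Partner chains of types I, IV and VI kept their ratios more closely than their levels across the 6 tumor libraries. The size of each ratio depends on the gene lengths behind the FPKM values, which are not given. In GENCODE M21 the exons cover 6563 bases for Col1a1 and 12426 for Col1a2, and 4380 for Col6a1 and 8326 for Col6a2. The ratio of Col1a1 to Col1a2 was 3.46, 2.63 and 2.81 in Ly6C tumor and 3.85, 3.47 and 3.77 in Ly6G tumor, while Col1a1 itself varied 31.1-fold. The log2 ratio averaged 1.56 ± 0.207 in Ly6C tumor and 1.88 ± 0.0776 in Ly6G tumor (SD, n = 3 each, two-sided exact permutation p = 0.1, the smallest possible). Col6a1 exceeded Col6a2 3.15-fold to 4.06-fold, and the ratio of Col6a3 to Col6a2 stayed between 1.09 and 1.22. The log2 ratio of Col6a1 to Col6a2 averaged 1.95 ± 0.115 in Ly6C tumor and 1.84 ± 0.178 in Ly6G tumor (SD, n = 3 each, exact permutation p = 0.5). By contrast, Col5a1 exceeded Col5a2 by 3.29-fold to 10.4-fold, and Col3a1 exceeded Col1a1 by 8.88-fold to 190.0-fold, with the smallest excess in Ly6G tumor 3 and the largest in Ly6C tumor 2.

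Between the labels within tumor, most chains did not pass, which with 3 libraries per group does not show that their levels were equal. Col1a1, for example, averaged 3.43 ± 2.36 FPKM in Ly6C tumor and 11.1 ± 14.6 in Ly6G tumor (SD, n = 3 each). Its limma difference of -0.85 ± 0.71 did not pass. None of the 18 was higher in Ly6C tumor than in Ly6G tumor and 1, Col11a2, was lower in limma, against 5.8% and 8.7% of all tested genes (14.5% in all). At an unadjusted p under 0.05 the counts were the same, 0 and 1. Col11a2 averaged 1.21 ± 0.146 FPKM in Ly6C tumor and 2.49 ± 0.173 in Ly6G tumor (SD, n = 3 each), without overlap, a difference of -0.66 ± 0.11 (limma adjusted p = 0.00536). That call was lost when the tumor libraries with the highest mitochondrial shares, Ly6C tumor 3 and Ly6G tumor 3, were both left out (-0.62 ± 0.15, limma adjusted p = 0.0792). Single libraries decided 2 further calls. Without Ly6G tumor 3, Col3a1 was higher in Ly6C tumor (0.84 ± 0.21, limma adjusted p = 0.0498, against 0.52 ± 0.26 with all libraries), and without Ly6G tumor 2, Col4a2 was lower (-0.51 ± 0.13, limma adjusted p = 0.0422, against -0.24 ± 0.20). Over all 44 chains, 0 lay wholly above and 5 wholly below in Ly6C tumor, against 12.2% of detected genes in each direction. Among the 5 was Col11a1, whose highest value was 0.00428 FPKM. When libraries were rescaled to the pan-leukocyte genes, which were lower in Ly6C tumor for 16 of 20, the picture turned: 14 chains were higher in Ly6C tumor, while the median of all genes moved to 1.11.

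In spleen, 0 of the 18 chains passed in either direction between Ly6C and Ly6G in limma, against 30.6% of all tested genes (22.1% higher and 8.59% lower). Since 14 of the 18 reached 1 FPKM in no spleen library, they had little room to differ on log2(FPKM + 1) there. The count of 0 is therefore no result about those 14 chains. At an unadjusted p under 0.05 the counts were 0 higher and 1 lower. The lower chain was Col14a1, at 0.716 ± 0.317 FPKM in spleen libraries of Ly6C and 1.53 ± 0.759 FPKM in those of Ly6G (SD, n = 3 each, limma adjusted p = 0.0787). It passed without Ly6C spleen 2 (-0.68 ± 0.23, limma adjusted p = 0.0499). Over all 44 chains, 3 lay wholly above and 1 wholly below in Ly6C spleen, against 16% and 9.38% of detected genes. Col1a1 lay wholly higher in Ly6C spleen, at 0.824 ± 0.18 FPKM, than in Ly6G spleen, at 0.291 ± 0.0689 (SD, n = 3 each), and its difference of 0.50 passed only in a fit of the spleen groups alone (limma adjusted p = 0.019). The tissue effects of the labels differed for 1 of the 18 chains, Col11a2, by -0.78 ± 0.16 (limma adjusted p = 0.00677), against 21.8% of all tested genes (6.02% higher and 15.8% lower).

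Counts in the gene lists below stand against 46.2% of all tested genes called higher and 30.5% lower in Ly6C, and 51.5% and 24.7% in Ly6G. As with the chains, list members that reached 1 FPKM in no spleen library passed the filter through tumor alone and had to be higher there, so their rise is no result about the list. Such members were 11 of the 21 tested folding and hydroxylation genes, 0 of 8 export genes, all 8 cleavage and cross-linking genes, 7 of 11 collagen-binding matrix genes, 4 of 7 receptors and 3 of 6 proteases. Among the cell type markers they were 7 of 11 tested for fibroblasts, 2 of 2 for epithelium, 2 of 3 for cartilage and bone, 2 of 3 for endothelium and 2 of 3 for pericytes.

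Of 21 tested folding and hydroxylation genes, 18 rose and 3 fell in Ly6C tumor and 18 rose and 2 fell in Ly6G tumor, with median log2 differences of 1.99 and 2.10. Serpinh1, the collagen-specific chaperone Hsp47, rose most, by 6.09 ± 0.20 in Ly6C, with 66.3, 66.8 and 72.1 FPKM in tumor against 0.0413, 0 and 0.021 in spleen, and by 5.82 ± 0.20 in Ly6G. The prolyl hydroxylase subunit P4ha1 rose by 1.99 ± 0.12 and 1.61 ± 0.12, and the lysyl hydroxylase Plod2 by 4.33 ± 0.26 and 4.12 ± 0.26. Tmem38b, an ion channel of the endoplasmic reticulum, fell most, by 2.93 ± 0.19 and 1.72 ± 0.19. Of 8 export genes, 6 rose in each label and 1 fell in Ly6G (median 0.69 and 0.57), with the coat protein Sec24d at 1.92 ± 0.16 and 2.58 ± 0.16 and Klhl12, a ubiquitin ligase adaptor, at -0.26 ± 0.11 in Ly6G.

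The 14 genes of procollagen cleavage and cross-linking held 8 that reached the filter, each through tumor alone and each called higher in both labels (median 4.45 and 4.60), led by the procollagen peptidase enhancer Pcolce at 6.42 ± 0.14 in Ly6C and 6.01 ± 0.14 in Ly6G. Loxl2, a lysyl oxidase, rose by 1.15 ± 0.18 and 1.20 ± 0.18. The main lysyl oxidase gene Lox did not reach the filter, at 0.0716 to 0.442 FPKM in Ly6C tumor and at most 0.0216 in Ly6C spleen, and at 0.106 to 1.64 FPKM in Ly6G tumor and at most 0.0356 in Ly6G spleen. Of 11 tested matrix genes that bind collagen, 8 rose and 1 fell in Ly6C and 9 rose and 1 fell in Ly6G (median 2.31 and 2.61). The perlecan gene Hspg2 rose most, by 7.62 ± 0.17 and 7.63 ± 0.17, the collagen-binding glycoprotein gene Sparc rose by 6.90 ± 0.20 and 6.32 ± 0.20, and Tgfbi fell most, by 1.73 ± 0.40 and 1.58 ± 0.40.

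Collagen receptors moved in both directions. Of 7 tested receptor and uptake genes, 5 rose and 1 fell in each label (median 1.38 and 1.31). The discoidin domain receptors Ddr1 and Ddr2, tyrosine kinases that bind fibrillar collagen, rose by 5.01 ± 0.18 and 4.05 ± 0.09 in Ly6C and by 4.98 ± 0.18 and 4.08 ± 0.09 in Ly6G. The endocytic receptor Mrc2 rose by 1.38 ± 0.14 and 1.31 ± 0.14. Lair1, the inhibitory collagen receptor of leukocytes, had 0.272, 0.136 and 0.313 FPKM in Ly6C tumor, against 1.65, 2.66 and 2.47 in Ly6C spleen, and fell by 1.38 ± 0.15 in Ly6C and 0.97 ± 0.15 in Ly6G. The collagen-binding integrin genes Itga2 (at most 0.825 FPKM) and Itga11 (at most 0.0579 FPKM) did not reach the filter. Of 6 collagen-cutting protease genes, 2 rose and 2 fell in Ly6C and 3 rose and 2 fell in Ly6G (median 0.50 and 0.73). The membrane-bound Mmp14 rose most, by 5.65 ± 0.14 and 5.68 ± 0.14, the interstitial collagenase Mmp13 rose by 4.38 ± 0.34 and 4.15 ± 0.34, and the neutrophil granule genes Mmp9 in Ly6C (by 4.07 ± 0.37) and Mmp8 in Ly6G (by 3.41 ± 0.34) fell most.

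Cell type markers give the setting of these values. Of 11 tested fibroblast markers other than collagens, 9 rose and 0 fell in limma in each label, at an unadjusted p under 0.05 as well as adjusted (median 2.62 and 2.42), with Pdgfra at 3.07 ± 0.19 and 2.95 ± 0.19, Pdgfrb at 2.36 ± 0.20 and 2.39 ± 0.20, Dcn at 2.98 ± 0.43 and 2.61 ± 0.43 and Lum at 2.65 ± 0.38 and 2.42 ± 0.38. Dpt had the largest rise in Ly6C (4.31 ± 0.14) and S100a4, which myeloid cells express too, in Ly6G (4.30 ± 0.49). Of 9 epithelial markers, Krt8 (9.29 ± 0.18 and 8.71 ± 0.18) and Krt18 reached the filter, through tumor alone, and were called higher, while 7 in Ly6C tumor and 4 in Ly6G tumor stayed under 0.5 FPKM in all 3 libraries. Of 8 cartilage and bone markers, 3 reached the filter, 2 of them through tumor alone, and were called higher in each label, with Sox9 at 5.07 ± 0.13 and 5.06 ± 0.13, while Acan and Ibsp were at most 0.011 FPKM. Of 3 tested endothelial markers, 1 rose and 1 fell in Ly6C and 2 rose and 1 fell in Ly6G, with Cldn5 at 1.01 ± 0.43 and 2.15 ± 0.43 and Pecam1 at -1.35 ± 0.28 and -0.70 ± 0.28. Of 3 tested pericyte markers, 2 rose and 1 fell in each label, with Rgs5 at 1.20 ± 0.41 in Ly6C, Notch3 at 1.68 ± 0.42 in Ly6G and Mcam at -1.85 ± 0.39 and -1.88 ± 0.39.

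Leukocyte markers went the other way. All 20 pan-leukocyte genes and all 13 neutrophil genes fell in each label (medians -3.70 and -2.53, and -4.07 and -4.02), Ptprc by 2.88 ± 0.26 in Ly6C and 1.72 ± 0.26 in Ly6G. Of 9 monocyte genes, 9 fell in Ly6C and 6 in Ly6G, and of 10 macrophage genes, 5 and 7 fell. The lowest log2 differences of these lists were -5.04 ± 0.33 in Ly6C and -4.70 ± 0.33 in Ly6G for Arhgdib, -10.35 ± 0.83 and -9.03 ± 0.83 for Camp, -6.67 ± 0.41 and -6.10 ± 0.41 for Chil3, -2.63 ± 0.46 in Ly6C for Csf1r and -1.91 ± 0.57 in Ly6G for C1qa. The 1 tested melanocyte marker of 6, Pmel, fell by 1.13 ± 0.12 and 0.87 ± 0.12, and 3 of the 6 were listed at 0 in every tumor library. What part these changes in markers have in the levels of the collagen chains was not tested.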

How the data were processed

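Total RNA of 12 mouse samples was sequenced in paired-end mode on an Illumina instrument, per the labels' protocols. Per the submitters' processing notes, the tools were HISAT2 2.0.5 and featureCounts 1.5.0-p3, with build GRCm38. The authors deposited 1 matrix of FPKM values per gene and library. Neither the tool nor the annotation behind those FPKM values is named in the sources used here, and fragment counts were not recovered: if the repeated step of low values were 1 fragment, libraries would hold 16.7M to 21.2M fragments and 1 fragment on a 5 kb gene would be 0.00944 to 0.012 FPKM, but only 25.8% to 28.4% of low values lay within 0.05 of a whole step. No counting interval was therefore computed. Whether strand was used in counting is not stated, so reads in opposite-strand overlaps cannot be told apart.

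Of 54674 entries, 570 assembled loci without a gene identifier were left out. Symbols and coordinates came from GENCODE M21, and promoter sequences from RefSeq (GRCm38.p6). Genes that reached 1 FPKM in 3 or more of the 12 libraries were fitted on log2(FPKM + 1) in limma 3.58.1 (R 4.3.3) with 4 group means and a variance trend, two-sided, adjusted over 13610 genes. Shares and chain ratios were compared by exact permutation over libraries. The code was tested on simulated data. Members, gene lists and tests were chosen with earlier results of these data known. All tested chains are named, then the 3 untested chains with the highest means, the member of each list with the largest rise and fall, and a fixed set of processing, receptor and marker genes. Rgs5, Vim, Epcam, Krt18, Acan, Ibsp and the other untested chains were added after their values were seen. Alternatives were other pseudocounts, filters and scalings, fits of 2 groups, a replicate block and leaving out libraries. Python 3.11.15, pandas 2.3.3, numpy 2.4.6, scipy 1.17.1, matplotlib 3.10.9 and version 1.17.8 of data.table were used.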

Additional observations from a re-analysis of the deposited data

Results flagged for a closer look

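The tissue difference of Col11a2 was lower in Ly6C than in Ly6G libraries by 0.78 on the log2 scale (-0.78 ± 0.16, limma interaction, adjusted p = 0.00677), the only one of the 18 tested chains for which that difference between the labels passed. Its FPKM were 1.12 to 1.38 in Ly6C tumor, against 2.23 to 2.81 in Ly6C spleen, and 2.3 to 2.6 in Ly6G tumor, against 1.91 to 2.64 in Ly6G spleen. Every Ly6C tumor library lay below every library of the other groups. Under pan-leukocyte scaling the difference was 0.02.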

How the results depend on the processing

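The counts of chains higher in tumor stayed within 11 to 18 (Ly6C) and 11 to 19 (Ly6G) under 13 other settings, and within 14 to 16 and 16 to 16 when each library was left out. Counts of lower chains rest on genes near 1 FPKM. Chains lower in Ly6C tumor than spleen numbered 2, but 1 with a pseudocount of 5, 4 without a filter, 0 at 5 FPKM, 0 with pan-leukocyte scaling, 1 without both libraries of highest mitochondrial share, and 1 to 2 without single libraries. For Ly6G the count was 1, but 3 without a filter, 0 at 5 FPKM, 2 with quantile normalization and 0 with pan-leukocyte scaling. Between labels in tumor, the count of lower chains was 1, but 3 without a filter, 0 at 5 FPKM, 0 with pan-leukocyte scaling, 0 without both mitochondria-rich libraries and 1 to 2 without single libraries, and that of higher chains was 0, but 14 with pan-leukocyte scaling and 0 to 1 without single libraries. In spleen, higher chains numbered 0, but 2 with equal sums or in a 2-group fit, and lower chains 0, but 1 with median-of-ratios or quantile scaling and 0 to 1 without single libraries. For the interaction, lower chains numbered 1, but 2 without a filter or with equal sums, 0 at 5 FPKM and 0 with pan-leukocyte scaling, and higher chains 0, but 2 with pan-leukocyte scaling and 1 without both mitochondria-rich libraries. With the stricter filter fewer genes were tested, and for the other settings the cause was not tested. The fibrillar and type IV shares turned to -0.65 and 0.41 on summed log2 values, and ranged over 1.72 to 8.95 and -3.29 to -1.52 points without single tumor libraries. The log2 ratio differences ranged over -0.44 to -0.24 (Col1), 0.0609 to 0.149 (Col4) and 0.0135 to 0.191 (Col6).

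Of 2197 values of single chains under these settings, 2034 kept direction and side of the threshold, 11 lost the call and 31 gained one. Another 14 changed sign with a call in the reported fit, the other fit or both. A further 107 changed sign without a call in either fit, 1 of them between tissues and 13 under pan-leukocyte scaling. With pan-leukocyte scaling, the difference between Ly6C and Ly6G tumor reversed to 1.16 for Col6a1, 1.05 for Col5a3 and Col4a1, 1.04 for Col6a2, 1.02 for Col6a3, 0.94 for Col4a2, 0.88 for Col5a1, 0.84 for Col7a1, 0.74 for Col24a1 and 0.12 for Col11a2, the Ly6C tissue difference to 0.55 for Col14a1 and 1.86 for Col11a2, and the Col11a2 interaction to 0.021. With quantile normalization the Ly6G tissue difference of Col11a2 was -0.43. Of the differences between labels in tumor listed here, only that of Col11a2 had passed in the reported fit. The Ly6G tissue difference of Col11a2 had not passed there. The median of all genes was 0.227 and 0.815 (Ly6C and Ly6G tissue differences) with equal sums, 0.146 and 0.162 with median-of-ratios factors, 0.017 and 0.0182 with quantile normalization and 3.18 and 2.23 with pan-leukocyte scaling. Higher genes were 60.2% and 67.6% of calls, but 57.1% and 76.0% with equal sums, 55.6% and 57.1% with median-of-ratios factors, 51.2% and 51.3% with quantile normalization and 96.1% and 95.7% with pan-leukocyte scaling. A replicate block changed none of the 10 counts (14, 2, 16, 1, 0, 1, 0, 0, 0 and 1). Correlations of deviations between same-numbered libraries ran between -0.36 and 0.279, so the numbers were not taken to pair libraries. Depth limits chains near 0.01 FPKM, which may be absent or present.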
